A study of Mus musculus with 3 samples.

Results

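A set of 2625 windows of 10 kb lost methylation in spermatogonia without *Pld6*. They were chosen from 246285 non-overlapping autosomal windows, of which 223934 had at least 20 calls at CpG sites in each of 3 bisulfite libraries and could be judged. A window was a member when its methylation level, the share of methylated calls among the pooled calls of the window, was at least 0.3 lower in *Pld6* KO than in WT. The members made up 1.17% of the eligible windows. The reverse difference of the same size, higher in *Pld6* KO, was found in 91 windows or 0.0406%. The WT and *Pld6* KO values chose the members, so that their difference is described here and not tested. The *Dnmt3L* KO library was not used in the choice.

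The cells were spermatogonia of C57BL6/J mice at postnatal day 7, sorted with an antibody to EpCAM, and the genotypes were WT, *Pld6* KO and *Dnmt3L* KO with 1 library each. The libraries were made by post-bisulfite adaptor tagging, in which adaptors are joined after the bisulfite step that turns unmethylated cytosine into uracil. The paper reports biological replicates of each genotype with closely similar methylation. Here each genotype had 1 library, and whether a library joins several animals is not given. With 1 library a genotype, no spread between animals can be given, and genotype and library cannot be told apart. The 95% Wilson intervals printed with levels cover counting error only and take calls as independent, although neighboring calls can come from the same read. The study counts heterozygous animals of both lines among its WT samples, and it is not given in the sources used here which animals made up the WT library. The deleted part of each allele is not given there either.

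*Pld6* encodes a mitochondrial protein required for making piRNAs, the small RNAs that pair with transcripts of retrotransposons in male germ cells. In fetal prospermatogonia, piRNAs lead the methylation machinery to promoters of young retrotransposons, above all of the L1 family, whose full-length copies carry their promoter at the 5′ end. *Dnmt3L* encodes a partner of the de novo methyltransferases without catalytic activity of its own, and methylation of most of the genome in these cells needs it.

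The libraries held 19289688 to 64076569 calls. The autosomal level was 0.704 (WT), 0.724 (*Pld6* KO) and 0.303 (*Dnmt3L* KO). The labels were checked in 2 ways. A run of 66 CpG sites at *Pld6* had 163 calls in WT and 0 in *Pld6* KO, and a run of 53 sites in *Dnmt3l* had 88 calls in WT and 0 in *Dnmt3L* KO. The starts of the maternally methylated genes *Kcnq1ot1*, *Peg3*, *Mest* and *Peg10* lay between 0 and 0.122 in all libraries, whereas the paternally methylated region upstream of *H19* stood at 0.859 (WT), 0.884 (*Pld6* KO) and 0.148 (*Dnmt3L* KO). The annotated start of *Snrpn* had 2 calls in WT and could not be read.

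The sequences that the members shared are shown first, as a description of what the windows hold. All words of 28 bases with at least 2 CG were read from the reference within the members, and the word that added most members not yet counted was taken 10 times in turn, among words at least 10 times as frequent in members as in other eligible windows. The words were thus picked for being frequent in the members, and their share is a description. The CG sites, at which methylation is read, are in capitals.

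Word 1: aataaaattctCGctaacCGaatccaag
Word 2: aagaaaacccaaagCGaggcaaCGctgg
Word 3: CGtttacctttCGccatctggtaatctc
Word 4: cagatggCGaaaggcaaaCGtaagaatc
Word 5: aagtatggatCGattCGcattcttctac
Word 6: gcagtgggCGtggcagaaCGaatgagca
Word 7: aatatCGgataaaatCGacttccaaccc
Word 8: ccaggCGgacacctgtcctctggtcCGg
Word 9: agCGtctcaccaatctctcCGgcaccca
Word 10: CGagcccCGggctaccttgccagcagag

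Word 1 stood in 899 members (34.2%) and in 2.01% of the other eligible windows. Word 2 stood in 653 members against 0.691% of the others, and word 4 in 604 against 0.749%. Words 5 and 7 stood in 746 and 655 members. Word 10 was found in 491 members, of which 81.5% also held a match to the L1Md_A amplicon, a stretch of the 5′ region of this young L1 subfamily that the study amplified after bisulfite treatment. Word 3 was found in 487 members, of which 2.67% held such a match. Word 8 was likewise rarely found with L1Md_A, with 273 members and a match in 2.56% of them. Word 6 was found in 71 members, of which 38% held a match to RLTRETN_Mm, the long terminal repeat of the ETn endogenous retrovirus. Word 9 was found in 33 members, none of which held an L1Md_A or RLTRETN_Mm match. In all, 1732 members (66.0%) held at least 1 of the 10 words, against 4.69% of the other eligible windows.

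The matches of the amplicons did not depend on such a pick. Converted bases were put back into the 8 amplicon sequences of the study, and copies were counted at 90% identity or more over at least 90% of the length. An L1Md_A match was found in 483 members or 18.4% (95% interval 17.0 to 19.9%), and in 0.450% of the other eligible windows. The product of the primers in the first open reading frame of L1Md_A, read as an exact pair of primers in the reference, was found in 507 members (19.3%) against 0.581%. RLTRETN_Mm was matched in 33 members (1.26% against 0.117%), and RLTR1B-MMERGLN_I in 14 (0.533% against 0.0208%). RLTR4 was matched in 5 (0.190% against 0.0235%). IAPLTR1_MM was matched in 14 members (0.533% against 0.432%), MT2-MERVL in 16 (0.610% against 0.569%), and RLTR10C-MMERVK10C in 4 (0.152% against 0.103%). For these the share of the other windows lay within the interval of the members. The exact product of the IAPEz primers was found in 1 member (0.0381%, interval 0.00673 to 0.215%) and in 0.291% of the other windows. No member held RLTR6, which allows a share of up to 0.146% by the upper Wilson bound. At least 1 of the 8 amplicons was matched in 566 members or 21.6%, against 1.70% of the others.

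**Figure D1:**
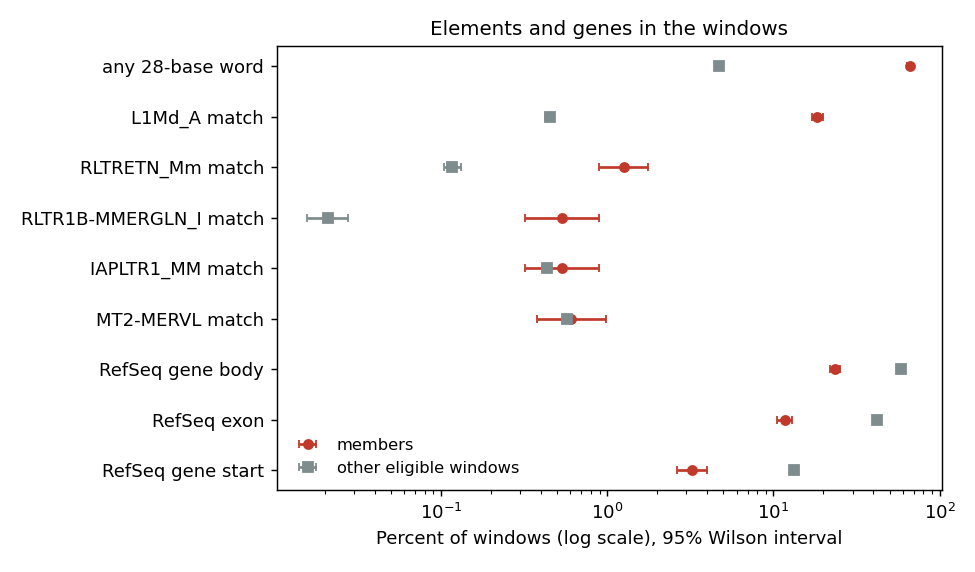
Percent of windows (log scale, bars are 95% Wilson intervals) that hold a word, an amplicon match or a RefSeq gene, for the 2625 members (circles) and the 221309 other eligible windows (squares). L1Md_A stands at 18.4% against 0.450%, IAPLTR1_MM and MT2-MERVL lie together, and genes are less frequent in members, with a gene body in 23.4% against 58.7%.

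The levels of the members covered a broad range in *Pld6* KO. In WT the lowest member stood at 0.449, the median at 0.848 and the highest at 1. In *Pld6* KO the lowest stood at 0.0536, the median at 0.442 and the highest at 0.683. The members thus kept part of their methylation over 10 kb, and only the tail of the distribution came near 0. The members just inside the threshold had differences of 0.3, 0.3 and 0.300009, and those just outside 0.299886, 0.299834 and 0.29981.

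In the *Dnmt3L* KO library the members lay far below the rest of the genome. Their median was 0.0833, with quartiles of 0.0392 and 0.140, against a median of 0.293 in the other eligible windows, with quartiles of 0.176 and 0.425. A *Dnmt3L* KO level of at most 0.1 was found in 1598 members (60.9%), where 11.5% of all eligible windows had one. No methylated call was found in 276 members (10.5%), against 0.965% of the other windows. At the other end, 73 members (2.78%) had a level of at least 0.3, as 48.8% of the other windows did. The *Dnmt3L* KO level was at least 0.3 below the WT level in 2624 members, where 85.9% of all eligible windows passed that limit. The WT level also enters the rule that chose the members. Among other eligible windows with a WT level of at least 0.3, the share that passed was 88.5%. Pooled over all members the levels were 0.830 for WT (95% interval 0.828 to 0.831), 0.433 for *Pld6* KO (0.431 to 0.434) and 0.0981 for *Dnmt3L* KO (0.0964 to 0.0998).

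**Figure D2:**
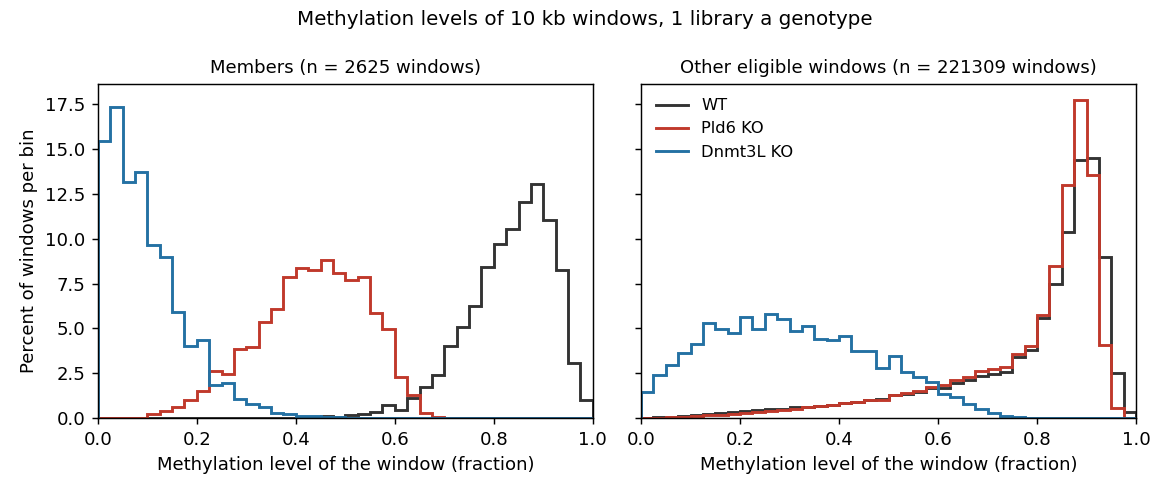
Percent of windows in each bin of the methylation level, for members on the left and other eligible windows on the right, with 1 line for each library. In the members *Dnmt3L* KO lies lowest (median 0.0833), *Pld6* KO in between (0.442) and WT highest (0.848), whereas WT and *Pld6* KO run together in the other windows (medians 0.853 and 0.848).

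Repeat content moved with the *Dnmt3L* KO level, and the comparison was therefore made within classes of the soft-masked share, which is the share of bases that the reference marks as repeats. Among windows with under 30% masked, the median *Dnmt3L* KO level was 0.111 in 85 members and 0.342 in the other windows. From 50 to 75% masked it was 0.0833 in 1226 members and 0.171 in the others. At 75% or more it was 0.0714 in 865 members and 0.130 in the others. The members were lower in each of these classes, and the gap narrowed as the masked share rose. Among windows with a WT level from 0.8 to 0.9, the median was 0.0833 in 1190 members and 0.338 in the others. The part of repeat content and of base composition in the *Dnmt3L* KO level was not tested further.

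**Figure D3:**
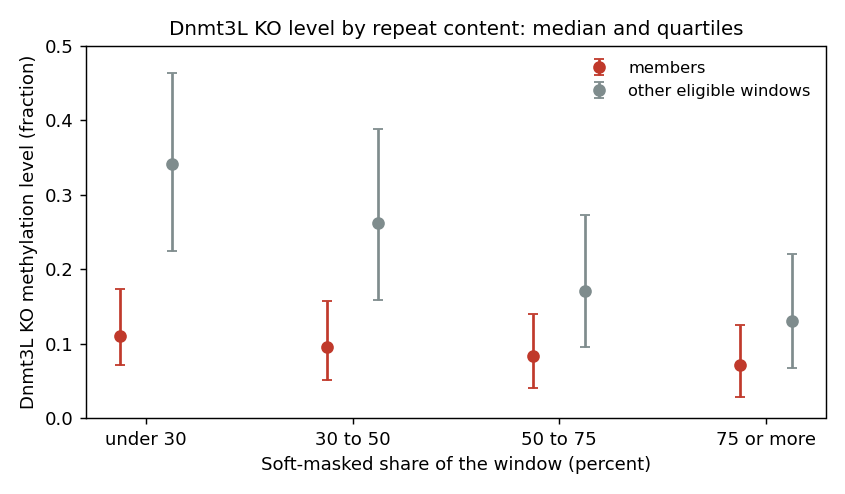
Median (points) and quartiles (bars) of the *Dnmt3L* KO methylation level over windows, by the soft-masked share of the window in percent. Members lie below the other eligible windows in every class, from 0.111 against 0.342 under 30% masked to 0.0714 against 0.130 at 75% or more.

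Around the L1 5′ region of the members, the loss in *Pld6* KO was deepest over a short stretch and became smaller with distance from it on both sides. For 474 clusters of L1Md_A matches in members, sites were placed by their distance from the end of the most 3′ match, along the strand of the element. From 1000 bp before this point to 500 bp after it, the *Pld6* KO level was 0.160 to 0.169 and the WT level 0.853 to 0.886. From 500 to 1000 bp after it the *Pld6* KO level was 0.456 (WT 0.820). From 1000 to 1500 bp after it the *Pld6* KO level was 0.680 (WT 0.810), and from 2000 to 2500 bp 0.831 (WT 0.871). Upstream, the *Pld6* KO level was 0.338 (WT 0.809) from 1000 to 1500 bp and 0.538 (WT 0.812) from 1500 to 2000 bp. It was 0.647 (WT 0.834) from 2000 to 2500 bp upstream and 0.711 to 0.797 beyond 2500 bp. The bins downstream held few calls, with 135 in *Pld6* KO between 1500 and 2000 bp. In *Dnmt3L* KO the stretch did not stand out in the same way. The level was 0.0445 to 0.0516 within it and 0.171 (298 calls) from 500 to 1000 bp after it, lay between 0.0709 and 0.109 from 1000 to 5500 bp downstream, and was 0.136 to 0.2 beyond 2000 bp upstream.

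**Figure D4:**
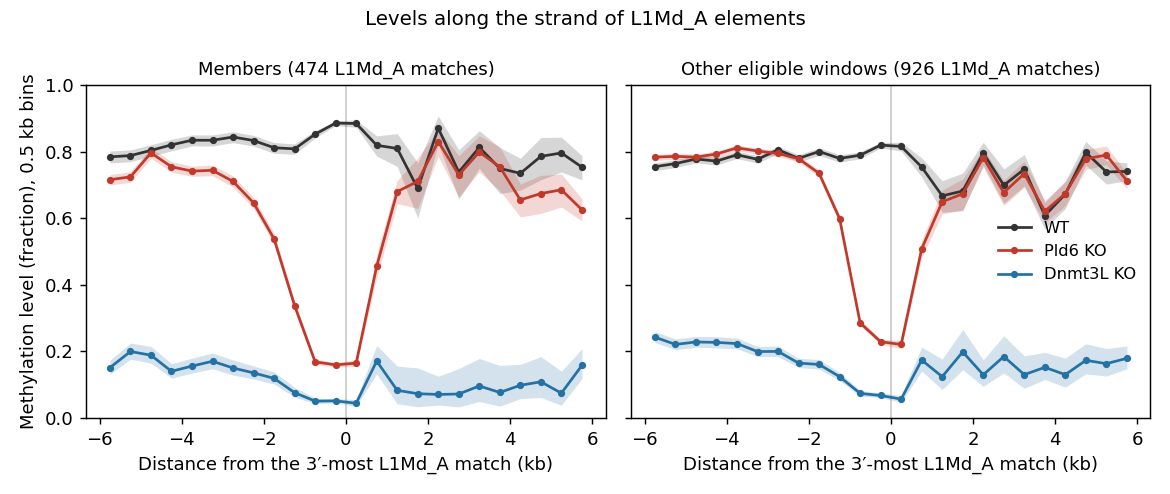
Methylation level in 0.5 kb bins by the distance in kb from the end of the most 3′ L1Md_A match, oriented along the element, with 95% Wilson intervals shaded, for 474 match clusters in members and 926 in other eligible windows. *Pld6* KO falls to 0.160 within the match region of members and to 0.221 in the other windows and rises again on both sides, while *Dnmt3L* KO stays low throughout.

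The same stretch was low in windows that were not members. Inside L1Md_A matches the *Pld6* KO level was 0.176 in members (95% interval 0.170 to 0.183) and 0.285 in other eligible windows (0.275 to 0.294), and the WT levels were 0.893 and 0.839. Of the windows with an L1Md_A match, 32.7% were members. Members with a match had more of their *Pld6* KO calls inside matches, 13746 against 40582 outside, than the other windows with a match, 9402 against 113001. Within members with a match, the sites outside it stood at 0.366 in *Pld6* KO where they were soft-masked and at 0.656 where they were not, with WT at 0.843 and 0.824. In RLTRETN_Mm matches of members the level was 0.876 (WT), 0.218 (*Pld6* KO) and 0.0564 (*Dnmt3L* KO), against 0.823, 0.532 and 0.139 outside the match.

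Around word 3, where few members held an L1Md_A match, a short stretch was low as well. In the 500 bp after the word as printed, the level was 0.893 (WT), 0.160 (*Pld6* KO) and 0.0206 (*Dnmt3L* KO), and from 500 to 1000 bp it was 0.860, 0.150 and 0.0189. On the other side of the word, from 500 to 1000 bp, *Pld6* KO stood at 0.689 and WT at 0.884. Word 4 and the reverse complement of word 3 shared a run of 14 bases, and word 4 lies at the first open reading frame of L1Md_A, whose primer product was found in 81.1% of its members. Around word 6, in the 500 bp before it, the levels were 0.880 (WT), 0.189 (*Pld6* KO) and 0.0560 (*Dnmt3L* KO). Not every word lay next to such a stretch. In the 500 bp after words 1, 5 and 7 the *Pld6* KO level was 0.691, 0.638 and 0.652. WT stood there at 0.780, 0.727 and 0.793. For word 1, *Pld6* KO stood at 0.162 (WT 0.870) from 3000 to 3500 bp before the word.

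The windows next to the members were close to WT. At 10 kb on either side, windows that were not members themselves had medians of 0.813 and 0.808 in WT and 0.8 and 0.795 in *Pld6* KO. At 50 kb the *Pld6* KO medians were 0.8 and 0.795. In *Dnmt3L* KO the neighbors stood at 0.167 and 0.158 at 10 kb and at 0.196 and 0.184 at 50 kb, all below the median of 0.293 over the other eligible windows. Most members stood alone, with 2482 single windows, 67 pairs and 3 runs of 3 windows. An adjacent member, on either side, was found for 143 members (5.45%). The share of members among all eligible windows, 1.17%, is for a single window and is not a like comparison for a neighbor on either side. The median distance between the starts of nearest members was 160 kb. The share of members was highest on chromosome 3, with 240 of 14455 eligible windows (1.66%), and lowest on chromosome 11, with 71 of 11504 (0.617%).

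**Figure D5:**
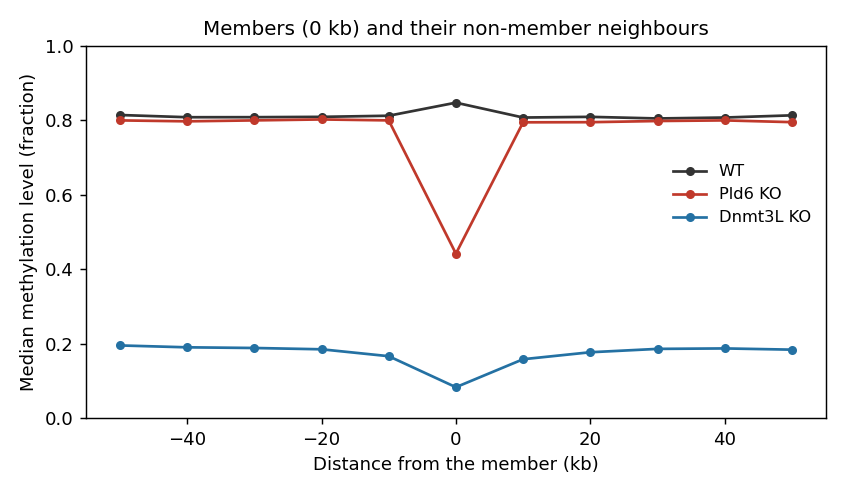
Median methylation level of the members (0 kb) and of eligible windows up to 50 kb away that were not members, with 1 line for each library. *Pld6* KO falls from 0.8 to 0.442 in the member and returns at the next window, and *Dnmt3L* KO is lowest in the member at 0.0833.

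The members were rich in repeats and poor in genes. The median soft-masked share was 69.1% against 27.6% in the other eligible windows, and 865 members (33.0%) were masked over at least 75% of their bases, as 2.65% of the others were. The median GC content was 40.1% against 41.7%, and the median number of CpG sites was 83 against 77. Both directions depended on depth. In windows whose smallest call count was 20 to 49, which held most members, GC content was higher in members, at 39.8% against 38.5%, and at 100 or more calls the CpG count was lower, at 114 against 129. Soft-masked sites of the members were lower in *Pld6* KO than unmasked ones, with levels of 0.344 and 0.571, while WT was at 0.839 and 0.817. The members also had fewer calls than the other windows. The median number of calls in a member was 71 (WT), 111 (*Pld6* KO) and 39 (*Dnmt3L* KO), against 142, 211 and 65 in the other windows.

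The number of members depended on depth. Where the smallest call count of the 3 libraries was 20 to 49, 1859 of 82057 windows were members (2.27%) and 72 had the reverse difference. From 50 to 99 calls there were 714 of 81519 (0.876%) against 16, and at 100 or more 52 of 60358 (0.0862%) against 3. Losses outnumbered gains in each class. The median *Dnmt3L* KO level of the members was 0.0833, 0.0800 and 0.0865 in these classes. The share of members with an L1Md_A match was 20.7, 13.6 and 3.85%, against 0.859, 0.338 and 0.0547% of the other windows. The median soft-masked share was 70.7, 64.2 and 55.8% in members and 35.8, 26.2 and 22.1% in the others, so that both measures fell with depth in both sets.

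A RefSeq gene body, pseudogenes left out, was overlapped by 614 members (23.4%, interval 21.8 to 25%) and by 58.7% of the other eligible windows. A protein-coding gene was overlapped by 421 members (16.0% against 48.7%), an exon by 307 (11.7% against 42%) and a gene start by 85 (3.24% against 13.4%). In all 547 genes were hit, of which 476 held 1 member. A longer gene spans more windows and is hit more often by any set of windows. The immunoglobulin kappa locus *Igk* held the most, with 11 members among 271 eligible windows, followed by the lncRNA gene *Gm32647* with 7 of 107. *Naaladl2* held 5 of 119, and *Agbl4*, *Galntl6* and *Macrod2* held 4 each. *Cfhr3*, a gene of the complement factor H family, held 3 members among 9 eligible windows. Of the gene families looked at, olfactory receptors were overlapped by 14 members (0.533% against 0.474%), vomeronasal receptors by 13 (0.495% against 0.192%) and zinc finger genes named *Zfp* by 9 (0.343% against 0.685%).

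Of 12 genes that the study pairs with a neighboring retrotransposon, taken with 50 kb upstream, 4 held a member, and 4 of their 301 eligible windows (1.33%) were members, a share near that of all windows. The list holds genes with an L1 neighbor raised in *Pld6* KO, together with *Tecrl*. Genes listed with other elements, or for *Dnmt3L* KO alone, were not examined. *Pamr1* held a window with 3 L1Md_A matches at chr2:102600001-102610000, with 0.867 (WT), 0.384 (*Pld6* KO) and 0.0444 (*Dnmt3L* KO). *Gc*, the gene of the vitamin D binding protein, held one with 0.846, 0.424 and 0.0385. *Il23r*, a receptor subunit for interleukin 23, held one with 0.928, 0.563 and 0.0732. *Tecrl* held one with 0.711, 0.368 and 0.1. That window lay inside the gene and held no word or amplicon match. The paper describes the L1 copy paired with *Tecrl* as lying upstream of the gene. None of 50 eligible windows at the paternally methylated imprinted genes *H19*, *Rasgrf1*, *Meg3* and *Zdbf2* was a member, a count near the 1.17% of all eligible windows, and the largest difference was 0.242 at *Rasgrf1*. *Rasgrf1* is known as the imprinted gene whose methylation involves piRNAs. None of 136 eligible windows at 20 genes of the piRNA pathway was a member, again a count near that share, with the largest difference, 0.251, at *Morc1*.

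Neither a word nor an amplicon match was found in 844 members (32.2%). Their median levels were 0.828 (WT), 0.458 (*Pld6* KO) and 0.0884 (*Dnmt3L* KO). Their median soft-masked share was 54.0% and their GC content 39.0%. In 24.9% of them an adjacent window held a word or a match, as in 11% of other eligible windows without either. Their soft-masked sites stood at 0.386 in *Pld6* KO and their unmasked sites at 0.503, with WT at 0.824 and 0.811.

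The members with at least 100 calls in each library gave the most precise levels, and 2 of these 52 held an L1Md_A match. The window with the largest difference among them, at chr10:29280001-29290000, overlaps an exon of the lncRNA gene *Gm40620* and stood at 0.906 for WT (95% interval 0.847 to 0.945), 0.383 for *Pld6* KO (0.327 to 0.441) and 0.0865 for *Dnmt3L* KO (0.0462 to 0.156). The intergenic window at chr4:61820001-61830000 stood at 0.843, 0.327 and 0.107. At chr1:85220001-85230000 in *Gm38510*, with a difference of 0.514, 13 L1Md_A matches and a masked share of 99.5%, the levels were 0.927, 0.413 and 0.0916. The intergenic window at chr13:16100001-16110000 stood at 0.856, 0.374 and 0.0588. The highest *Dnmt3L* KO level of these deep members was 0.248 (0.174 to 0.340), at chr14:56830001-56840000, and the lowest was 0 of 103 calls, which allows up to 0.0360 by the upper Wilson bound, at chr14:14300001-14310000. With fewer calls allowed, the largest difference, named after its values were seen, lay at chr6:67000001-67010000 in *Gng12*, with 14 L1Md_A matches, where the levels were 0.983 (WT), 0.108 (*Pld6* KO) and 0.0256 (*Dnmt3L* KO).

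The deep members at chr10, chr4 and chr13 held neither a word nor a match. In each, the 300 bp with the largest difference between WT and *Pld6* KO, at 15 or more calls in both, are shown as examples from the plus strand of GRCm38 with CG in capitals, because their sequence differs from the L1 words.

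chr10:29288481-29288780: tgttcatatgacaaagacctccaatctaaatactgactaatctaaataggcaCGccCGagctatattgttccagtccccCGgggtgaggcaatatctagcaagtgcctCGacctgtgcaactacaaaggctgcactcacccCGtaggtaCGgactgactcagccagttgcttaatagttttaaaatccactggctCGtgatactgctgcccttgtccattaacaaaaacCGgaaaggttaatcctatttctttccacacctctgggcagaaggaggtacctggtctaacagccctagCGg
chr4:61826751-61827050: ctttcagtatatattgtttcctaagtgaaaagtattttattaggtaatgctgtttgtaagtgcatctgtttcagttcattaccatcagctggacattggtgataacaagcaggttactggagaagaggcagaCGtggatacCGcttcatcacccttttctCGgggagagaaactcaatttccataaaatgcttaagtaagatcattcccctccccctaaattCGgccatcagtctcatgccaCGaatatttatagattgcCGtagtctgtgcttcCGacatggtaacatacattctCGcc
chr13:16100501-16100800: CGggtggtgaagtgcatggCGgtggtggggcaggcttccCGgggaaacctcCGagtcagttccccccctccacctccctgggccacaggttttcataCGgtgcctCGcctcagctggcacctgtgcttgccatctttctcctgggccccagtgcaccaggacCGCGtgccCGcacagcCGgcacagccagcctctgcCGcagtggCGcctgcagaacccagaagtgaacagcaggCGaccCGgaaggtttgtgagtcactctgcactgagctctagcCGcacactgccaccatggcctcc

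On chr10 the stretch had 16 of 16 methylated calls in WT, 1 of 24 in *Pld6* KO and 0 of 20 in *Dnmt3L* KO, and 7.33% of its bases were masked. On chr4 it had 17 of 17, 3 of 63 and 0 of 12, with 78% masked. On chr13 it had 27 of 34, 0 of 43 and 0 of 16, with 0% masked and a GC content of 65.7%. The lower level was not limited to these stretches. With their calls left out, the windows stood at 0.894, 0.831 and 0.870 in WT and at 0.415, 0.372 and 0.443 in *Pld6* KO, in the same order. The WT and *Pld6* KO calls chose the windows and, within them, the stretches. The difference in the stretches follows from that choice, and the difference in the rest is not independent of it. The *Dnmt3L* KO levels were not part of the choice. These calls were all unmethylated in the 3 stretches, with upper Wilson bounds of 0.161, 0.242 and 0.194.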

How the data were processed

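The authors sequenced bisulfite libraries of the 3 genotypes, trimmed the reads and mapped those of unique regions to mm10 with Bismark. The deposited files list counts of methylated calls and of unmethylated calls at CpG sites, with the level as a fraction. The counts were pooled over windows, and the fraction served only for the alternative with the mean of site levels. Reads from young repeats that map to several places give no calls, so that the newest copies are thinly covered. Sequence, soft-masking and genes came from GRCm38 (RefSeq), the assembly named by mm10, at which every site on a chromosome was a CG. Amplicon copies were found with blastn 2.17.0. Intervals were computed with statsmodels 0.14.6. Named windows were the largest differences and the highest and lowest *Dnmt3L* KO levels at 100 or more calls, and the longest runs. The members and lists were chosen with earlier results of these data known. The procedure was tested on simulated data. Alternatives changed the call minimum, window position, pooling, deep sites, threshold and identity of matches.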

Additional observations from a re-analysis of the deposited data

Results flagged for a closer look

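Chromosome X was outside the choice of members, and is given here because it showed the same loss. Of its 17104 windows, 6344 had at least 20 calls in each library, and 210 of these, or 3.31% (95% interval 2.90 to 3.78%), were at least 0.3 lower in *Pld6* KO than in WT, against 25 with the reverse difference. Their median levels were 0.821 (WT), 0.411 (*Pld6* KO) and 0.0860 (*Dnmt3L* KO), and the other eligible windows of chromosome X had a median of 0.235 in *Dnmt3L* KO. The lower depth of chromosome X moved with this share, and its part in it was not tested. Both directions were more frequent than on the autosomes. The reverse difference was found in 25 of 6344 windows of chromosome X and in 91 of 223934 autosomal ones (0.0406%), where losses made up 1.17%. The part of depth in the reverse differences was not tested either.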

How the results depend on the processing

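Of 60 alternatives over 7 results, 29 stayed within 1.5 times the count or within the interval of the value as reported, 31 moved and 0 reversed. In all 52 that compare members with other windows, the members stayed on the same side. The count of members was 766 at 50 calls (0.540% of eligible windows), 52 at 100 calls (0.0862%), 6364 at a difference of 0.2 (against 1472 gains) and 1049 at 0.4 (against 6). The median *Dnmt3L* KO level was 0.0865 at 100 calls, 0.0882 with the mean of site levels, 0.1 at a difference of 0.2 and 0.0694 at 0.4. L1Md_A matches were in 12.9% of members at 50 calls, 3.85% at 100, 12.2% at a difference of 0.2, 23.9% at 0.4, 35.3% at 80% identity and 12.3% at 95% identity. For any amplicon these were 17.8, 7.69, 15.7, 27.2, 41.1 and 13.2%. The median GC content was 40.8% at 50 calls, 42.7% at 100, 39.8% at a difference of 0.2 and 40.3% at 0.4. The median soft-masked share was 70.2% at 10 calls, 63.9% at 50, 55.8% at 100, 62.4% at a difference of 0.2 and 72.9% at 0.4. Genes were hit by 19.2% of members at 100 calls and 25.1% at a difference of 0.2. The cause of these moves was not tested. No paired analysis was possible because 1 library a genotype was analysed. Depth limits the single window, since 20 calls leave a wide interval.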

Other observations

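At 100 or more calls in every library, 3 windows were at least 0.3 higher in *Pld6* KO than in WT. At chr10:105230001-105240000 in *Tmtc2* the levels were 0.225 (WT), 0.623 (*Pld6* KO) and 0.127 (*Dnmt3L* KO). At chr11:17460001-17470000, between genes, they were 0.350, 0.702 and 0.101. At chr11:59780001-59790000, which overlaps *Mprip* and *Pld6* itself, they were 0.501, 0.880 and 0.229. This window holds the run of 66 CpG sites at *Pld6* without calls in *Pld6* KO, where 21 of 163 WT calls were methylated. Its levels were thus taken over unlike sites in WT and *Pld6* KO, and its difference cannot be read as a gain at shared sites. Over all 91 windows with the reverse difference, the median *Dnmt3L* KO level was 0.143. A word of the members stood in 16 of them (17.6%, interval 11.1 to 26.7%). This share lay above the 4.69% of the other eligible windows and below the 66.0% of the members. An L1Md_A match was held by 0 windows, which allows a share of up to 4.05% by the upper Wilson bound. That range lies below the 18.4% of the members, but it includes the 0.450% of the other eligible windows.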
